A study of Mus musculus with 12 samples.

Results

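The genes described here surround Mir451a, the gene of the microRNA miR-451a, on mouse chromosome 11. They are the protein-coding genes of GENCODE vM21 (build GRCm38) whose start coordinate lies within 3 Mb of the start of Mir451a, with ribosomal protein genes left out. The start is the lower coordinate of a gene, whatever its strand. The rule uses position only, and it gave 115 genes, all of which are among the 56941 genes of the deposited table. Of these, 58 start before Mir451a, at lower coordinates, and 57 after it. The 1 ribosomal protein gene left out was Rpl23a. Counting from the 5′ end of each gene would keep 114 of the 115. The table was made on build GRCm39, so genes were joined by Ensembl ID, and every position below is the GRCm38 position of the annotation.

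RNA of mandibular lymph nodes was sequenced from wild-type mice and from mice labelled miR-451a knockout, with 3 libraries in each of 4 groups. All mice were sensitized with 0.5% 1-fluoro-2,4-dinitrobenzene (DNFB, a contact allergen) on the shaved abdomen, 100 µl on each of 3 successive days. The sensitized groups, WT_se and KO_se, were taken on day 9 without challenge. The challenged groups, WT_DTH and KO_DTH, also received 20 µl of 1% DNFB on the left ear on day 9 and were taken 24 hours later, on day 10. Challenge and day of harvest therefore cannot be told apart. The strain, age and sex of the mice and the design of the knockout allele are not given in the sources used here. Nor do they say whether the libraries within a group are from different animals. Read as a sign of sex, Xist counts lay above Ddx3y counts in 1 of 3 libraries of WT_se and of KO_se. In WT_DTH and KO_DTH they did so in 2 of 3, so no group's 3 libraries all come from 1 animal. The p-values below measure the spread between libraries, which may still be technical in part.

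MicroRNAs are short RNAs that guide a silencing complex to messenger RNAs, mainly through the pairing of bases 2 to 8, the seed, with sites in 3′ UTRs. miR-451a is best known from red blood cell precursors, where it is made from 1 cluster with miR-144, and its hairpin is cut by Argonaute 2 in place of Dicer. A targeted allele is inherited together with the chromosome around it, so the genes that flank it are a usual check in knockout tissue. The hairpin of Mir451a lies on the plus strand at chr11:78073170-78073241 (GRCm38), between Flot2 and Eral1. The mature sequences of the cluster, from RefSeq (GRCm38.p6), show what the targeted locus makes, with the seed in capitals.
mmu-miR-451a: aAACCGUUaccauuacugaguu
mmu-miR-144-5p: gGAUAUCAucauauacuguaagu
mmu-miR-144-3p: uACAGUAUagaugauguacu
mmu-miR-451b: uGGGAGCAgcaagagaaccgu
These 4 sequences have 4 different seeds. miR-451b is annotated on the minus strand of the same hairpin region.

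Mir451a and Mir451b were not analysed here. Mir144 had 0 counts in the 6 wild-type libraries, 0 to 1 in KO_se and 0 to 2 in KO_DTH, so it gave no check of the genotype labels. Libraries held 36946696 to 58405576 estimated counts. The markers of T cells and of B cells fixed for this tissue were present in every library, with summed levels of 950 to 1990 and 1150 to 2310 CPM (counts per 1000000 of the library's effective size). B cell markers summed to 1150 to 1490 CPM in WT_se, 1640 to 2310 in KO_se, 1860 to 2310 in WT_DTH and 1630 to 2220 in KO_DTH. T cell markers summed to 1580 to 1990, 1350 to 1680, 950 to 1280 and 1050 to 1220 CPM in the same order. In KO_se against WT_se, 2 of 6 B cell markers were called (defined below) higher, with a median log2 difference of 0.66. Of 8 T cell markers 1 was lower, with a median of -0.27. Their part in the genotype results was not tested. Salivary gland markers (19 of 20 in the table) also held 6.13 to 13.4% of counts in WT_se, 2.49 to 6.13% in KO_se, 1.86 to 2.93% in WT_DTH and 4.01 to 8.92% in KO_DTH. Summed levels of 8 markers of dividing cells were 79.9 to 162 CPM in WT_se, 351 to 435 in KO_se, 101 to 168 in WT_DTH and 218 to 237 in KO_DTH. In such bulk samples, fewer cells of a type and less RNA per cell cannot be told apart.

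Of the 115 genes, 102 passed the filter on low counts and were tested. The 13 others had at most 17 counts in any library. They were Serpinf2, Dbil5, Bhlha9, Trarg1, Cryba1, Gm10277, Sez6, Foxn1, Slc13a2, Sebox, Gm9964, Spaca3 and Asic2. Foxn1 is the transcription factor of thymic epithelium, Sez6 a neuronal membrane protein and Asic2 a neuronal acid-sensing channel. Bhlha9, Sez6, Foxn1 and Gm9964 had 0 counts in every library. Differences are log2 fold changes from edgeR's quasi-likelihood test over all 20034 genes tested. The SE after each ± is the size of the difference divided by the square root of the test's F. A gene is called when its Benjamini-Hochberg adjusted p is under 0.05. Levels in CPM are not corrected for gene length, so they are compared between libraries and not between genes.

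The genes around Mir451a differed little between genotypes as a group. In the sensitized nodes the median difference, KO_se against WT_se, was -0.02 on the log2 scale over the 102 genes and -0.01 over all genes tested. In the challenged nodes, KO_DTH against WT_DTH, both medians were 0.01. The median size of the difference, whatever its sign, was 0.22 in the sensitized and 0.16 in the challenged nodes, beside 0.24 and 0.18 over all 14564 protein-coding genes tested. Within 1.5-fold of wild type were 84 of the 102 genes (82.4%) when sensitized and 81 (79.4%) when challenged, beside 78.7% and 81.3% of all protein-coding genes.

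In the sensitized nodes 5 of the 102 genes were called (4.9%), beside 5.17% of all genes tested and 6.26% of protein-coding genes. Spag5, Unc119, Tmem97 and Evi2a rose in the knockout, 4 genes against a background of 3.76% called higher. Ssh2 fell, against a background of 1.4% called lower. In the challenged nodes 1 gene was called, Tmem98, which rose. That is 0.98% of the 102, beside 0.599% of all genes tested, of which 0.514% were higher and 0.0849% lower. No gene near Mir451a was called in both states.

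**Figure D1:**
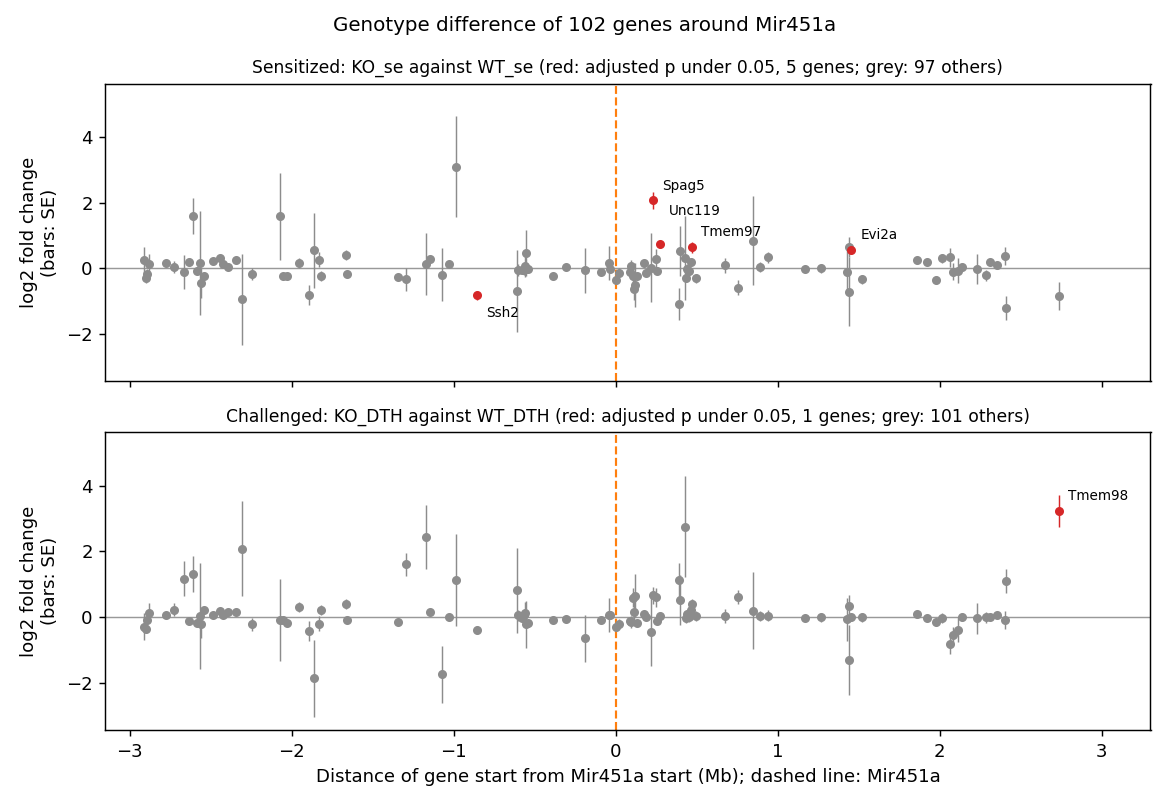
Log2 fold change between genotypes (vertical axis, bars are SE) against the distance of each gene's start from the start of Mir451a in Mb (horizontal axis), for the 102 genes tested, with KO_se against WT_se above and KO_DTH against WT_DTH below. Red points are the 5 and 1 genes with an adjusted p under 0.05, and most of the wide bars belong to genes of low counts.

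Position was described in bins on each side of Mir451a. Of the 5 genes called in sensitized nodes, 3 lie 0 to 0.5 Mb after Mir451a, where 24 genes were tested (12.5%). Among the 6 genes tested within 0.5 Mb before Mir451a none was called. Ssh2 is 1 of 9 genes tested 0.5 to 1 Mb before Mir451a, and Evi2a 1 of 10 genes tested 1 to 2 Mb after it. No gene was called among the 13 tested 1 to 2 Mb before, the 23 tested 2 to 3 Mb before, the 5 tested 0.5 to 1 Mb after and the 12 tested 2 to 3 Mb after. All bins but those of 23 and 24 genes hold under 20 genes, so 1 gene moves their share by several percent.

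Beyond the window, 8 of 87 protein-coding genes tested 3 to 10 Mb after Mir451a were called in the sensitized nodes (9.2%) and 5 in the challenged nodes (5.75%). On the other side, 3 to 10 Mb before, 7 of 149 (4.7%) and 3 (2.01%) were called. Over the rest of chromosome 11 the shares were 7.2% and 0.9% of 889 genes, and on the other chromosomes 6.19% and 0.66% of 13336 genes. The window's own shares, 4.9% and 0.98%, were lower than those on the side after it. Beside the side before it, the window was higher when sensitized and lower when challenged. Beside the rest of chromosome 11 and the other chromosomes, it was lower when sensitized and higher when challenged. All of these shares are descriptions, and their differences were not tested.

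**Figure D2:**
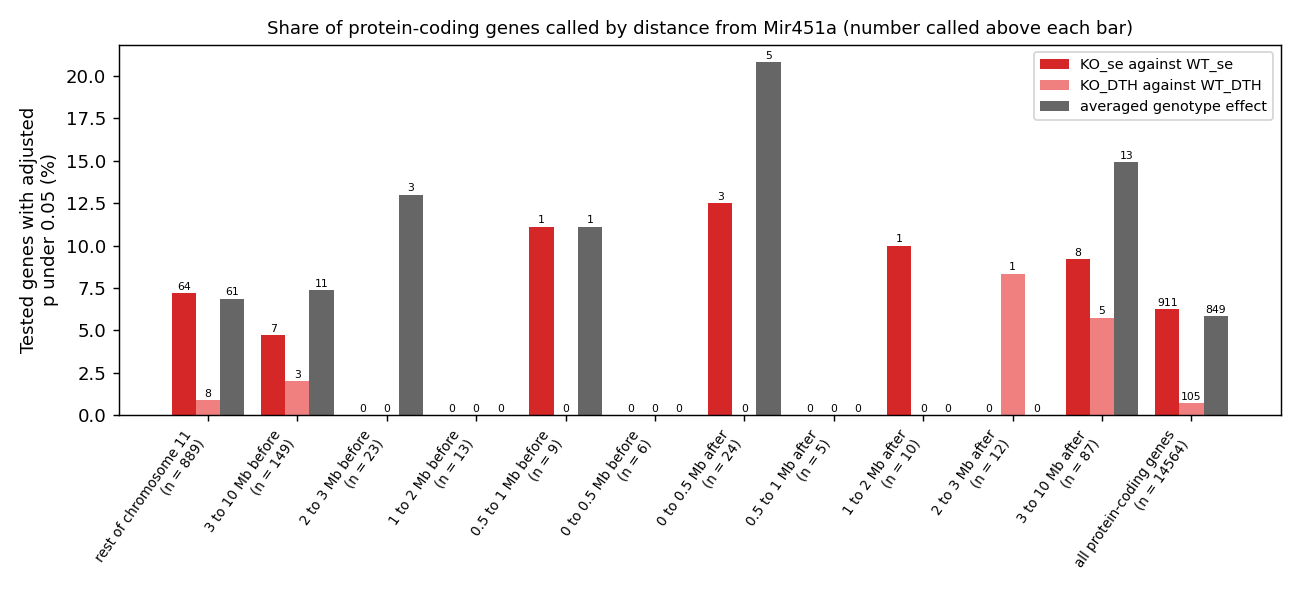
Share of tested protein-coding genes with an adjusted p under 0.05 (vertical axis, percent) by distance from Mir451a (horizontal axis, with the number tested), for the 2 genotype comparisons and the averaged genotype effect. The number called stands above each bar, and most bins inside the window rest on 0 to 3 genes.

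The 8 tested genes nearest to Mir451a start within 104 kb of it, and none was called in either state. Eral1, a GTPase that assembles the small subunit of the mitochondrial ribosome, lies on the minus strand at chr11:78073376-78080383 and its lower coordinate, its 3′ end, is 0.206 kb from the start of Mir451a. Its levels were 16.4, 18 and 18 CPM in WT_se and 14.4, 14.8 and 12 CPM in KO_se. In the challenged nodes they were 18.2, 19.3 and 20.5 CPM in WT_DTH and 14.4, 17.9 and 14.5 CPM in KO_DTH. The knockout libraries lay below the wild-type libraries in both states without overlap. The difference was -0.35 ± 0.12 when sensitized (adjusted p 0.115) and -0.31 ± 0.12 when challenged (adjusted p 0.256).

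Flot2, which codes for a scaffold protein of membrane rafts, starts 35.2 kb before Mir451a at chr11:78037931-78060434. Its levels were 20.1, 24.7 and 29.3 CPM in WT_se, 24.7, 24 and 24.9 in KO_se, 24, 23.4 and 22.4 in WT_DTH, and 23.9, 23.9 and 24.6 in KO_DTH. The groups overlapped in both states, with differences of -0.01 ± 0.12 and 0.05 ± 0.12. Traf4, an adaptor of the TNF receptor associated factor family, starts 85.3 kb after Mir451a and differed by -0.11 ± 0.12 when sensitized and -0.12 ± 0.12 when challenged. Phf12, a subunit of Sin3 corepressor complexes, starts 90.4 kb before it and differed by -0.11 ± 0.08 and -0.09 ± 0.08. Fam222b, 21.5 kb after Mir451a, differed by -0.13 ± 0.15 and -0.22 ± 0.15. The kinase gene Nek8, 92.9 kb after it, differed by 0.07 ± 0.17 and -0.15 ± 0.17. The groups overlapped for all 4 of these genes in both states.

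Dhrs13, a dehydrogenase gene 40.9 kb before Mir451a, had 0.53 to 2.08 CPM over all libraries and differed by 0.16 ± 0.51 and 0.07 ± 0.51. Tlcd1, which codes for a membrane protein acting on phospholipid composition, starts 104 kb after Mir451a and differed by -0.22 ± 0.29 and 0.59 ± 0.29. The SE of Dhrs13 and of Tlcd1 is wide, so a small difference was not detectable. Tlcd1, Dhrs13 and Phf12 share exon bases with genes of the opposite strand, and the strand setting of the counting is not stated.

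**Figure D3:**
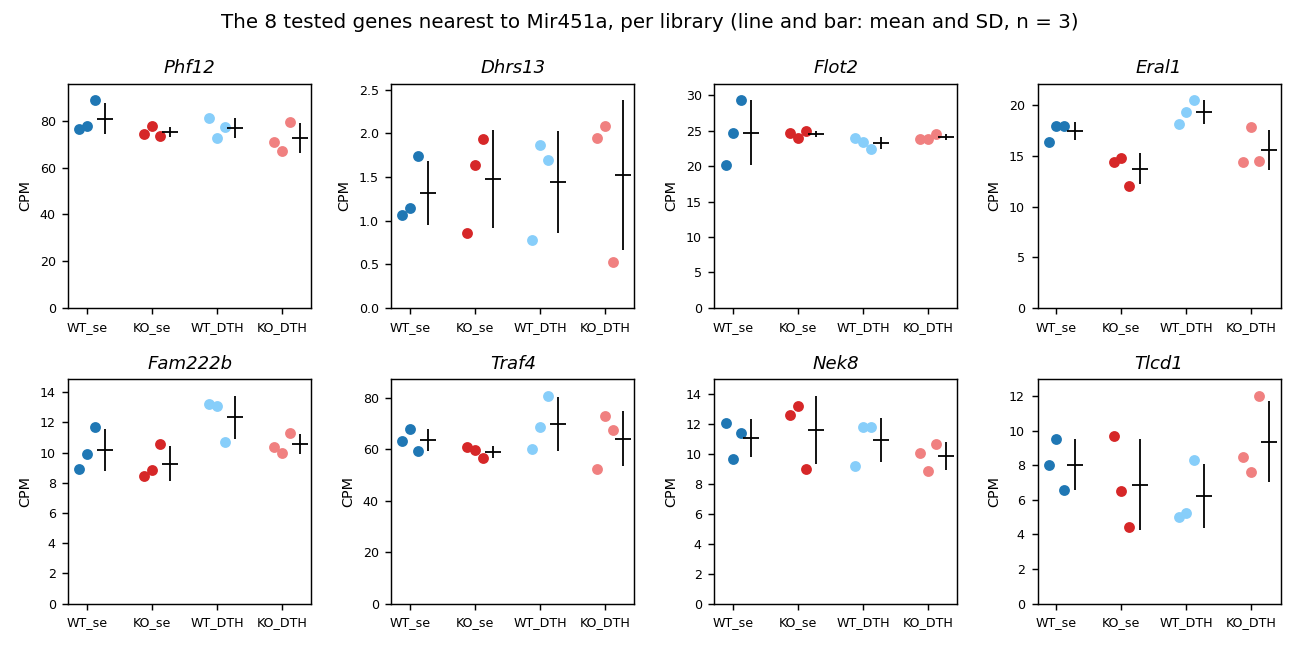
Levels in CPM (vertical axes, each from 0) of the 8 tested genes nearest to Mir451a in each library of the 4 groups (horizontal axes), with the mean and SD (n = 3). Of the 8, Eral1 is the gene whose knockout libraries lie below the wild-type libraries in both states.

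Spag5 codes for astrin, a protein of the mitotic spindle that helps to align chromosomes, and it had the largest called difference of the sensitized nodes near Mir451a. It lies at chr11:78301529-78322457, with its start 228 kb after that of Mir451a. Its levels were 2.53, 2.92 and 4.62 CPM in WT_se and 11.6, 16.1 and 14.9 CPM in KO_se. All knockout libraries lay above all wild-type libraries, and Spag5 rose by 2.07 ± 0.26 (4.21-fold, adjusted p 0.00172). In the challenged nodes the levels were 4.16, 4.74 and 4.99 CPM in WT_DTH and 8.66, 8.24 and 5.11 CPM in KO_DTH. The groups did not overlap there either, but the difference of 0.66 ± 0.25 was not called (adjusted p 0.24). The change of the genotype difference between states, tested as an interaction, was -1.41 ± 0.36 and was not called (adjusted p 0.0604).

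Markers of dividing cells moved with Spag5. All 8 (Mki67, Top2a, Cdk1, Kif11, Ccnb1, Bub1, Aurkb and Plk1) rose in KO_se against WT_se, with a median of 1.75, and none was called in the challenged nodes, where their median was 0.80. Their part in the Spag5 result was not tested. Spag5 was called in all 22 other fits of the sensitized comparison, among them both fits with salivary markers as covariates and all 12 that dropped a single library.

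Ssh2 codes for slingshot 2, a phosphatase that activates the actin-severing protein cofilin. It lies at chr11:77216287-77460220, 857 kb before Mir451a, and was the 1 gene called lower. Its levels were 677, 594 and 499 CPM in WT_se and 340, 333 and 328 CPM in KO_se, with no overlap. Ssh2 fell by 0.82 ± 0.14 on the log2 scale (adjusted p 0.00576), to 0.566 of wild type. In the challenged nodes its levels were 670, 708 and 511 CPM in WT_DTH and 530, 428 and 488 CPM in KO_DTH. There the groups overlapped, with a difference of -0.39 ± 0.13 (adjusted p 0.201). With 2 salivary components as covariates the sensitized difference was -1.02 ± 0.20 and the adjusted p 0.0536, the only 1 of 22 other fits in which Ssh2 was not called.

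Unc119 codes for a lipid-binding chaperone that carries myristoylated proteins, among them Src family kinases of T cells, to membranes. It lies at chr11:78343482-78349164, 270 kb after Mir451a. Its levels were 9.44, 11.2 and 10.9 CPM in WT_se and 18.3, 17.3 and 16.9 CPM in KO_se, and Unc119 rose by 0.74 ± 0.12 (adjusted p 0.00527). The challenged levels were 11.2, 10.9 and 12.9 CPM in WT_DTH and 12.5, 12.2 and 11 CPM in KO_DTH, which overlapped, and the difference was 0.03 ± 0.12. KO_se thus stood above the 3 other groups, and the interaction was -0.71 ± 0.17 (adjusted p 0.0508). The sensitized call was lost with the salivary score as covariate (0.75 ± 0.18, adjusted p 0.0903), with 2 salivary components (0.70 ± 0.19, adjusted p 0.129) and without the most salivary-rich library of every group (0.79 ± 0.17, adjusted p 0.0549).

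Evi2a codes for a small transmembrane protein, and its gene lies within an intron of Nf1 on the opposite strand, at chr11:79526560-79530609. Its levels were 26.7, 23.8 and 21.4 CPM in WT_se and 31.4, 35.9 and 38.5 CPM in KO_se, with no overlap, and it rose by 0.56 ± 0.11 (adjusted p 0.0131). The challenged levels were 49.0, 40.7 and 48.8 CPM in WT_DTH and 44.6, 47.5 and 45.3 CPM in KO_DTH, with a difference of -0.01 ± 0.11. Evi2a shares exon bases with Evi2, so how reads were divided between them is uncertain. The call was lost with the salivary score (0.59 ± 0.16, adjusted p 0.125), with 2 salivary components (0.64 ± 0.17, adjusted p 0.12), without the most salivary-rich libraries (0.41 ± 0.11, adjusted p 0.108) and without KO_se replicate 2 (adjusted p 0.0517). Nf1 itself, the gene of the Ras regulator neurofibromin, differed by 0.00 ± 0.13 when sensitized and -0.01 ± 0.13 when challenged.

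Tmem97, the gene of the sigma-2 receptor, a membrane protein of the endoplasmic reticulum tied to cholesterol handling, starts 469 kb after Mir451a. Its levels were 4.92, 5.62 and 5.57 CPM in WT_se and 7.28, 9.71 and 8.21 CPM in KO_se, with no overlap. It rose by 0.64 ± 0.17 (adjusted p 0.0448), close to the threshold. Tmem97 was called in 4 of 22 other fits. Leaving out any 1 library other than WT_DTH replicate 1 or KO_DTH replicate 3 ended the call, with an adjusted p of up to 0.171.

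Tmem98 codes for a single-pass membrane protein and was the 1 gene called in the challenged nodes. It lies at chr11:80810175-80822033, 2740 kb after Mir451a and so near the edge of the window. Its levels were 0.136, 0.184 and 0.176 CPM in WT_DTH, from 6, 10 and 10 counts, and 1.13, 2.48 and 1.13 CPM in KO_DTH, from 57, 101 and 47 counts. Tmem98 rose by 3.23 ± 0.49 (9.37-fold, adjusted p 0.0157), and the groups did not overlap. In the sensitized nodes it had 1.27, 2.30 and 3.05 CPM in WT_se and 0.93, 1.10 and 1.69 CPM in KO_se, which overlapped, with a difference of -0.84 ± 0.42 (adjusted p 0.276). WT_DTH was thus low beside all other groups.

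Salivary gland markers were also low in WT_DTH, at 1.86 to 2.93% of counts, though their range overlapped that of KO_se. Of the 19 markers, 3 rose in KO_DTH against WT_DTH, with a median of 2.40. With the salivary score as covariate the Tmem98 difference was 1.56 ± 0.67, and with 2 salivary components 1.51 ± 0.79, each with an adjusted p of 1.0. Without the most salivary-rich library of every group it was 2.83 ± 0.54 (adjusted p 0.092). The call was also lost without WT_DTH replicate 1, 2 or 3, with an adjusted p of up to 0.116 and log2 differences of 2.75 to 3.40 over the 12 fits without a single library. The part of salivary tissue in this result was not tested beyond these fits.

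Averaging the genotype difference over both states called 9 of the 102 genes (8.82%), beside 4.74% of all genes tested and 5.83% of protein-coding genes. Spag5, Tlcd2, Tmem97, Unc119, Inpp5k and Ywhae rose (6 genes, background 2.97%), and Ssh2, Eral1 and Supt6 fell (3 genes, background 1.77%). The averaged differences were 1.37 ± 0.18 for Spag5 (adjusted p 0.00166) and -0.60 ± 0.10 for Ssh2 (adjusted p 0.00474), and both were called in all 21 other fits. All 8 markers of dividing cells also rose in the average, with a median of 1.26, and their part in the averaged Spag5 result was not tested. The median over the 102 genes was 0.02, as over all genes tested, and 89 of 102 (87.3%) lay within 1.5-fold, beside 88.0% of protein-coding genes. By position, 5 of the 9 calls (Spag5, Tmem97, Unc119, Eral1 and Supt6) lie 0 to 0.5 Mb after Mir451a, where 24 genes were tested (20.8%). Tlcd2, Inpp5k and Ywhae are 3 of 23 genes tested 2 to 3 Mb before it (13%), and Ssh2 lies 0.5 to 1 Mb before it. The differences between these shares were not tested.

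The other 7 averaged calls lay between 0.0247 and 0.0498 in adjusted p and were lost in 10 or more of 21 other fits. Tlcd2, which like Tlcd1 acts on membrane phospholipids, had the largest of these differences. It had 0.633, 0.777 and 0.905 CPM in WT_se, 3.07, 1.66 and 2.33 in KO_se, 0.159, 1.40 and 0.721 in WT_DTH, and 1.97, 2.08 and 1.64 in KO_DTH. The knockout libraries lay above wild type in both states, and Tlcd2 rose by 1.46 ± 0.38 (adjusted p 0.0488). It shares exon bases with Mir22hg, and leaving out any library other than WT_DTH replicate 1 or 2 ended the call (adjusted p up to 0.113).

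Inpp5k, the gene of a phosphoinositide phosphatase, rose by 0.25 ± 0.07 (adjusted p 0.0444), from 58.4 to 66.3 CPM in WT_se and 68.1 to 84.3 CPM in KO_se. Its challenged levels, 60.8 to 67 CPM in WT_DTH and 66.6 to 77.8 CPM in KO_DTH, overlapped, with a difference of 0.19 ± 0.09 (adjusted p 0.385). Ywhae, which codes for the adaptor 14-3-3 epsilon, rose by 0.21 ± 0.05 in the average (adjusted p 0.0498). When challenged its groups overlapped too, at 157 to 175 CPM in WT_DTH and 172 to 196 CPM in KO_DTH, a difference of 0.16 ± 0.08 (adjusted p 0.372). The averaged rises of Unc119 (0.38 ± 0.08, adjusted p 0.0247) and Tmem97 (0.52 ± 0.12, adjusted p 0.0283) were called in 11 of 21 other fits. For Unc119 the sensitized nodes carried the averaged value, since its challenged difference was 0.03. Leaving out any library other than KO_se replicate 3 ended the call of Inpp5k (adjusted p up to 0.123). For Ywhae any library other than WT_DTH replicate 3 did so (adjusted p up to 0.142).

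Eral1, described above as the nearest gene, fell by 0.33 ± 0.09 in the average (adjusted p 0.0472), to 0.796 of wild type. Supt6, the gene of a histone chaperone of transcription elongation 134 kb after Mir451a, fell by 0.19 ± 0.05 (adjusted p 0.0495). Its levels were 128, 143 and 134 CPM in WT_se, 122, 115 and 110 in KO_se, 167, 153 and 152 in WT_DTH, and 139, 137 and 145 in KO_DTH. The knockout libraries lay below the wild-type libraries of the same state. Leaving out any 1 library ended the call of Supt6 (adjusted p 0.0513 to 0.128), and any library other than KO_DTH replicate 2 ended that of Eral1 (adjusted p up to 0.101).

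Without regard to the threshold, the genotypes did not overlap in 32 of the 102 genes when sensitized, beside 28% of all genes tested, and in 22 when challenged, beside 18.8%. In 8 genes they did not overlap in either state and differed in the same direction, beside 4.22% of all genes tested. Tlcd2, Pitpna, Timm22 and Spag5 were the higher ones, and Vps53, Gosr1, Eral1 and Supt6 the lower ones. Timm22, a subunit of the import complex of the mitochondrial inner membrane, had 7.86, 8.52 and 10.7 CPM in WT_se, 11.6, 12.5 and 11.9 in KO_se, 8.94, 10.7 and 10.7 in WT_DTH, and 14.9, 13.6 and 11.4 in KO_DTH. Its averaged difference was 0.40 ± 0.11 (adjusted p 0.0504). Gosr1, a SNARE protein of the Golgi, and Vps53, a subunit of a complex that tethers vesicles to the Golgi, differed by -0.21 ± 0.06 (adjusted p 0.0638) and -0.20 ± 0.06 (adjusted p 0.0958) in the average.

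**Figure D4:**
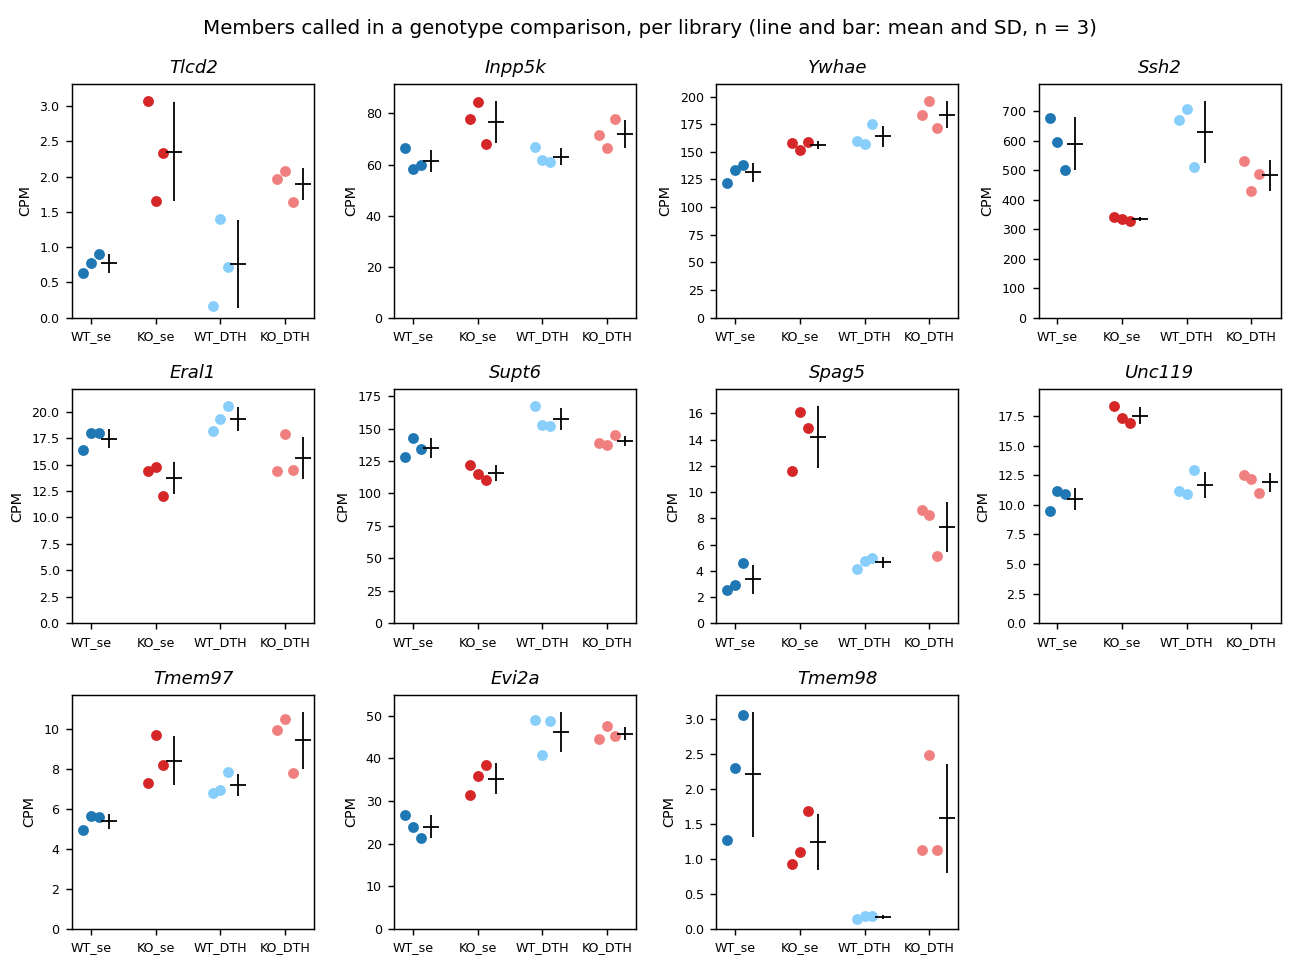
Levels in CPM (vertical axes, each from 0) in each library of the 4 groups (horizontal axes), with the mean and SD (n = 3), for the genes called in at least 1 genotype comparison. Spag5 and Unc119 are highest in KO_se, Ssh2 is lowest in KO_se, and Tmem98 is near 0 in WT_DTH.

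The genotype difference changed with challenge in 2 of the 102 genes (1.96%), beside 2.11% of all genes tested, and both changes were positive, beside 1.67%. For Tmem98 the interaction was 4.06 ± 0.64 (adjusted p 0.0237). Myo1d, the gene of an unconventional myosin, had 2.27, 4.37 and 4.52 CPM in WT_se and 1.73, 1.59 and 1.54 in KO_se, so the knockout was the lower. In the challenged nodes it had 2.91, 1.67 and 1.09 CPM in WT_DTH and 4.26, 5.10 and 2.87 in KO_DTH, which overlapped by 1 library. Its genotype differences were -1.2 ± 0.37 (adjusted p 0.0835) and 1.11 ± 0.37 (adjusted p 0.179), and the interaction was 2.31 ± 0.53 (adjusted p 0.044).

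Salivary markers moved in the same direction as these interactions, with 12 of 19 called higher and a median of 3.63. Of 6 B cell markers 2 were called lower (median -0.79) and of 8 T cell markers 1 higher (median 0.33). The part of B cells and T cells in the interactions was not tested. With the salivary score as covariate the Tmem98 interaction was 1.35 ± 1.06 (adjusted p 1.0), and that of Myo1d 1.68 ± 1.21 (adjusted p 1.0). With 2 salivary components the interaction of Myo1d was 1.94 ± 1.33, and it was not called (adjusted p 0.998). The SE of both values was wider than without covariates. Tmem98 was not called with 2 salivary components either (1.36 ± 1.21, adjusted p 0.998). Without the most salivary-rich library of every group neither gene was called. The interaction there was 3.65 ± 0.72 for Tmem98 (adjusted p 0.0624) and 1.84 ± 0.72 for Myo1d (adjusted p 0.285). The call of Tmem98 was lost without WT_DTH replicate 3, KO_se replicate 1 or 2, or KO_DTH replicate 1 (adjusted p up to 0.0719). That of Myo1d held only without WT_se replicate 1, WT_DTH replicate 1 or KO_DTH replicate 3 among the fits without a single library (adjusted p up to 0.114). No other gene of the window was called. By p, Unc119 came next with the interaction given above, then Cpd, the gene of carboxypeptidase D, with 1.95 ± 0.48 (adjusted p 0.0564), and then Spag5. Lyrm9, a small mitochondrial protein gene of the LYR family, followed with 1.2 ± 0.31 (adjusted p 0.0666).

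More of the genes around Mir451a moved with challenge than with genotype. In wild type 21 of the 102 were called (20.6%), beside 18.7% of all genes tested and 23.8% of protein-coding genes, 11 higher (background 9.77%) and 10 lower (background 8.97%). In the knockout 14 were called (13.7%), beside 9.67% of all genes tested and 12.2% of protein-coding genes, 11 higher (background 5.81%) and 3 lower (background 3.86%). These comparisons use the same libraries as the genotype comparisons, so their values stand side by side and are not independent of them. Libraries with Xist counts above Ddx3y counts were 1 of 3 in each sensitized group and 2 of 3 in each challenged group. The part of sex in the challenge results was not tested beyond the fit with sex as covariate.

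Scarf1, a scavenger receptor gene of endothelial and antigen-presenting cells, had 0.95, 2.84 and 1.10 CPM in WT_se and 9.10, 4.64 and 5.73 in WT_DTH. In the knockout it had 0.608, 1.57 and 1.39 CPM in KO_se and 7.21, 5.32 and 4.34 in KO_DTH. It rose by 1.99 ± 0.46 in wild type and 2.25 ± 0.46 in the knockout (adjusted p 0.00927 and 0.00903). Adap2, which codes for a GTPase-activating protein of Arf6, rose by 1.48 ± 0.26 and 1.02 ± 0.26, from 2.07 to 2.95 CPM in WT_se to 5.01 to 9.62 CPM in WT_DTH. Lgals9, the gene of the lectin galectin-9, which binds the checkpoint receptor TIM-3, rose by 0.54 ± 0.15 and 0.55 ± 0.15. Its levels were 71.3 to 107 CPM in WT_se, 130 to 138 in WT_DTH, 90.6 to 98.1 in KO_se and 119 to 169 in KO_DTH.

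Evi2a rose with challenge by 0.94 ± 0.11 in wild type (adjusted p 0.00015) and by 0.38 ± 0.11 in the knockout (adjusted p 0.0449). Psmd11, a subunit of the proteasome lid, rose by 0.36 ± 0.07 and 0.34 ± 0.07. Pitpna, which carries phosphatidylinositol between membranes, rose by 0.41 ± 0.06 and 0.27 ± 0.06, and Supt6 by 0.22 ± 0.07 and 0.28 ± 0.07. Rpa1, the large subunit of the protein that coats single-stranded DNA, was the 1 gene called lower in both genotypes, by 0.32 ± 0.07 and by 0.42 ± 0.07. Its levels were 113 to 115 CPM in WT_se, 86.1 to 101 in WT_DTH, 124 to 131 in KO_se and 91.8 to 99.7 in KO_DTH. Other genes were also lower without overlap in both genotypes, among them Rtn4rl1, Ankrd13b, Rab11fip4, Nufip2 and Ift20. Rtn4rl1, Ankrd13b and Rab11fip4 were called in wild type alone, and Nufip2 and Ift20 in neither. The share of such genes among all genes tested was not computed. Rtn4rl1, a Nogo receptor-like gene, differed by -1.02 ± 0.31 and -1.04 ± 0.31 (adjusted p 0.0361 and 0.0514), and Ankrd13b by -0.63 ± 0.18 and -0.53 ± 0.18 (adjusted p 0.0256 and 0.0786). The 8 genes called in both genotypes, Scarf1, Adap2, Lgals9, Evi2a, Psmd11, Pitpna, Supt6 and Rpa1, moved in the same direction in both. They are 8 of the 21 called in wild type and 8 of the 14 called in the knockout. That is 7.84% of the 102, beside 5.77% of all genes tested that were called in both genotypes in the same direction.

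Other genes were called in 1 genotype. In wild type, Tmem98 fell by 3.71 ± 0.49, Cpd by 1.83 ± 0.35, Slc46a1, the proton-coupled folate transporter, by 1.79 ± 0.51, Serpinf1, which codes for pigment epithelium-derived factor, by 1.75 ± 0.54, and Lyrm9 by 1.63 ± 0.23. Cpd had 48.3, 47.6 and 98.5 CPM in WT_se and 12.9, 23.1 and 18.7 in WT_DTH, against 38.3, 39.2 and 76.3 in KO_se and 59.6, 68.5 and 39.4 in KO_DTH. Its difference in the knockout was 0.12 ± 0.34. In the knockout, Spag5 fell by 0.95 ± 0.25 (adjusted p 0.0308), as did 4 of the 8 markers of dividing cells (median -0.80), whose part was not tested. Unc119 fell by 0.56 ± 0.12 (adjusted p 0.0111), and Ssh2 rose by 0.53 ± 0.14 (adjusted p 0.0268) and Myo1d by 1.33 ± 0.37 (adjusted p 0.0422). That a call stands in 1 genotype does not show a difference between them, and of these genes only Tmem98 and Myo1d were called in the interaction.

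Salivary gland markers fell with challenge in wild type, 17 of 19 with a median of -2.47, and 2 of 19 rose in the knockout, with a median of 1.31. All 8 T cell markers also fell in wild type (median -0.72), as did 2 in the knockout (median -0.41). Of 6 B cell markers 5 rose in wild type (median 0.64) and 0 were called in the knockout (median -0.18). Of 8 tested erythroid markers 5 fell in wild type (median -2.63) and 0 were called in the knockout (median -1.48). Erythroid markers summed to 7570 to 14800 CPM in WT_se, 2000 to 2240 in WT_DTH, 3340 to 14800 in KO_se and 1430 to 5470 in KO_DTH. The part of T cells, B cells and erythroid cells in the challenge results was not tested. With either salivary covariate 0 of the 102 genes were called in wild type, where 0.15% and 0.22% of all genes tested were called. In the knockout each fit called 1, beside 3.67% and 2.38%. With the salivary score it was Scarf1 (adjusted p 0.047), and with 2 salivary components none of the 14 held. The score was 7.396 to 8.464 in WT_se and 4.073 to 4.748 in WT_DTH. It nearly coincides with challenge in wild type, so that fit can hardly tell them apart. Evi2a in wild type had 0.99 ± 0.23 with the salivary score (adjusted p 0.115), and Tmem98 had -1.97 ± 0.71 (adjusted p 0.316). Without the most salivary-rich library of every group 14 genes were called in wild type and 0 in the knockout. Of the 21 calls in wild type, 9 held in all 12 fits without a single library, namely Psmd11, Pitpna, Rab11fip4, Tmem98, Scarf1, Evi2a, Lyrm9, Cpd and Adap2. The call of Slc46a1 was lost without any 1 library of WT_DTH or without WT_se replicate 2 or 3 (adjusted p up to 0.129). That of Serpinf1 held in 5 of the 12 fits. It was lost without any 1 library of WT_se, WT_DTH replicate 1 or 2, KO_se replicate 2 or KO_DTH replicate 3 (adjusted p up to 0.134). The call of Lgals9 was lost without WT_se replicate 3 (adjusted p 0.0633). The wild-type call of Rpa1 was lost without WT_DTH replicate 1 or 2 (adjusted p up to 0.0805), and that of Supt6 in 7 of the 12 fits (adjusted p up to 0.162). Of the 14 calls in the knockout, Psmd11, Rpa1, Scarf1 and Unc119 held in all 12 such fits. Each of the 10 others was lost without KO_se replicate 2, among other libraries, with an adjusted p of up to 0.153.

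**Figure D5:**
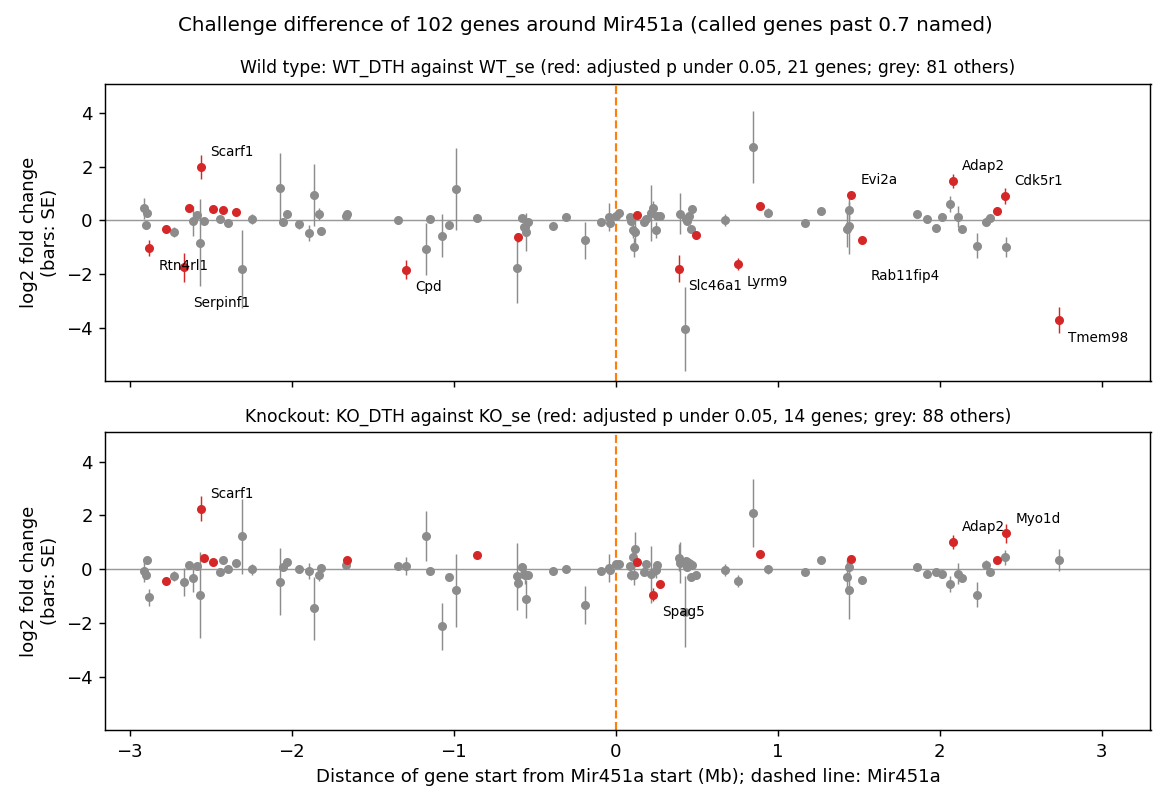
Log2 fold change with challenge (vertical axis, bars are SE) against the distance of each gene's start from Mir451a in Mb (horizontal axis), for wild type above and knockout below. Red points are the 21 and 14 genes with an adjusted p under 0.05, of which those that changed by more than 0.7 are named.

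The genes were also grouped by role, and 96 of the 115 stood on 1 of 6 lists. Of the list for signalling and immune genes, 21 of 22 were tested. Of these 21, 2 rose when sensitized (Unc119 and Evi2a), 0 were called when challenged and 2 rose in the average (Unc119 and Ywhae). Each count of 2 is 9.52%. Of all genes tested, 5.17% were called when sensitized, 0.599% when challenged and 4.74% in the average. These shares are the background of every list below, where 1 gene moves the share by several percent or more. The median difference of the signalling and immune list was -0.02 when sensitized and 0.01 when challenged, the values over all genes tested being -0.01 and 0.01. Nos2, the gene of inducible nitric oxide synthase, had 0 to 0.115 CPM in WT_se, 0 to 0.258 in KO_se, 0.176 to 0.978 in WT_DTH and 0.098 to 1.19 in KO_DTH. It differed by 0.84 ± 1.35 and 0.19 ± 1.17 between genotypes, too few counts for a narrower value. Crlf3, a cytokine receptor-like gene, had 133 to 178 CPM in WT_se and 111 to 137 in KO_se and differed by -0.36 ± 0.12 (adjusted p 0.112).

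Of the 19 genes of nucleus and RNA, Spag5 rose when sensitized (5.26%) and none was called when challenged. In the average Spag5 rose and Eral1 and Supt6 fell (15.8%). Suz12, a core subunit of Polycomb repressive complex 2, differed by 0.20 ± 0.08 (adjusted p 0.183) and -0.03 ± 0.08. Of the 23 genes of cytoskeleton and vesicle traffic, Ssh2 fell when sensitized (4.35%) and none was called when challenged. In the average Ssh2 fell and Inpp5k rose (8.7%). The median differences of these lists were 0.19 and -0.08 for nucleus and RNA, and -0.07 and 0.05 for cytoskeleton and traffic.

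Of 7 transporter and channel genes 4 were tested, and Tmem97 rose when sensitized and in the average (25% in each). Slc6a4, the serotonin transporter, had 0.905 to 2.12 CPM in WT_se, 0.663 to 1.97 in KO_se, 0.698 to 1.5 in WT_DTH and 0 to 0.736 in KO_DTH, with differences of -0.19 ± 0.80 and -1.75 ± 0.86 that were not called. Of the 13 genes of metabolism, mitochondrion and proteolysis, none was called in either state and Tlcd2 rose in the average (7.69%). Blmh, the gene of bleomycin hydrolase, had 34.0 to 34.1 CPM in WT_se and 38.6 to 42.9 in KO_se, a difference of 0.28 ± 0.08 (adjusted p 0.0661). Of 12 genes of the nervous system and other tissues 7 were tested, and Tmem98 rose when challenged (14.3%). Of the 15 tested genes on no list none was called in a genotype comparison.

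Larger differences without a call were found mostly in genes of low counts. When sensitized, 6 of the 102 genes (5.88%) differed by more than 2-fold, beside 11% of protein-coding genes, and when challenged 13 (12.7%), beside 11.3%. These counts include the called genes, Spag5 when sensitized and Tmem98 when challenged. Efcab5 had the largest fitted difference of the sensitized nodes, 3.1 ± 1.53 (adjusted p 0.262), from at most 38 counts in any library. Vtn, the gene of vitronectin, differed by 2.76 ± 1.54 when challenged (adjusted p 0.462), from at most 48 counts. Cpd, with at most 4137 counts, was an exception, with 1.61 ± 0.35 in the challenged nodes (adjusted p 0.0566).

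The annotated 3′ UTRs of these genes were searched for AACGGTT, the 7 bases that pair with the seed of miR-451a, on the transcript strand. A match was found in 2 of the 102 tested genes (1.96%), beside 375 of 14495 tested genes with a searched UTR (2.59%). The matches are shown within 22 bases of the GENCODE transcripts, with the matching bases in capitals. They are the places where miR-451a could pair with a gene of its own neighbourhood.
Slc43a2: ggggactggAACGGTTcatgta
Psmd11: aaatgtacaAACGGTTcttgct
Slc43a2, a transporter of large neutral amino acids, had 53.9, 49.8 and 53.3 CPM in WT_se and 47.9, 42.9 and 42.6 in KO_se. Its genotype differences were -0.24 ± 0.11 when sensitized (adjusted p 0.238) and 0.21 ± 0.11 when challenged (adjusted p 0.441). Psmd11 differed by 0.09 ± 0.07 and 0.07 ± 0.07. Neither gene with a match was called between genotypes, and a match alone does not show that a site is used.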

How the data were processed

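The authors deposited 1 table of estimated counts per gene, which were whole numbers as deposited. The tools named in the submitters' processing notes are fastp 0.23.2 (trimming), HISAT2 2.2.1 (alignment) and StringTie 2.2.1 (assembly and quantification), and the build is GRCm39. Per the labels, libraries of total RNA were made with a directional kit. The strand setting and annotation of the counting are not given in the sources used here. Of 56941 gene IDs 51948 matched GENCODE vM21 (GRCm38), and unmatched IDs held 0.326 to 0.543% of counts. Of the 115 genes, 31 share exon bases with another gene.

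Groups came from the labels. The test was edgeR's quasi-likelihood test (version 4.0.16, TMM scaling, minimum count of 10 in filterByExpr) on the counts, with 1 mean per group over 12 libraries and 8 residual degrees of freedom, two-sided, adjusted by Benjamini-Hochberg over 20034 genes at a threshold of 0.05. The fit was tested on simulated data. CPM are edgeR's counts per 1000000 of the TMM-adjusted library size. Other software was R 4.3.3, limma 3.58.1, DESeq2 1.42.0, matplotlib 3.10.9, Python 3.11.15 and pandas 2.3.3. Libraries held 36946696 to 58405576 counts. Replicates differed beyond counting noise (chi-squared per degree of freedom 36.8 to 293), so none was a copy of another.

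The genes named are those called in a genotype comparison, the 8 tested genes nearest to Mir451a, up to 4 per role list by the averaged effect, 5 by the interaction and 5 per direction of challenge. The text names a part of these. Others were named after their values were seen, among them Timm22, Vps53, Nf1, Suz12, Nos2, Vtn, Serpinf1 and Lgals9. The genes, role lists and marker lists were chosen with earlier results of these data known. Of 103 role list entries 7 were not within the window and were dropped. Of 10 erythroid markers 9 were in the table, and muscle and adipose markers summed to 6.09 to 11.2 and 0.159 to 1.93 CPM. Alternatives were DESeq2 size factors, no filter, the DESeq2 Wald test, a minimum mean of 50 counts, a replicate block, fitting only the libraries compared, each library left out, 3 treatments of salivary markers, sex as covariate (read from Xist counts above Ddx3y counts, true of 1 of 3 libraries in WT_se and in KO_se and of 2 of 3 in WT_DTH and in KO_DTH), windows of 1 and 2 Mb, strand-aware starts and ribosomal protein genes kept. The pseudocount alternative was not run, since the values are counts.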

Additional observations from a re-analysis of the deposited data

Results flagged for a closer look

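The difference between knockout and wild type changed with challenge in 2 genes near Mir451a, by an interaction term in edgeR's quasi-likelihood test. These are 1.96% of the 102 genes, beside 2.11% of all genes tested. For Tmem98 the interaction was 4.06 on the log2 scale, with a genotype difference of -0.84 ± 0.42 when sensitized and 3.23 ± 0.49 when challenged. For Myo1d it was 2.31, with -1.2 ± 0.37 when sensitized and 1.11 ± 0.37 when challenged. Of 19 salivary gland markers 12 were called higher in the same test. With the salivary score as covariate the interaction was 1.35 ± 1.06 for Tmem98 and 1.68 ± 1.21 for Myo1d (adjusted p 1.0 for each), and neither was called with 2 salivary components. Nor was either called without the most salivary-rich library of every group.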

How the results depend on the processing

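The numbers of genes near Mir451a that were called depended on the processing, and the cause was not tested. Each number counts all genes called under a setting, which need not be genes called in the main fit. In the sensitized comparison 5 became 2 with the salivary score, 1 with 2 salivary components, 3 without the most salivary-rich library of every group and 17 with the DESeq2 Wald test. Of the 5, only Spag5 and Ssh2 were called without the most salivary-rich libraries. In the challenged comparison 1 became 2 with only the libraries compared and with sex as covariate, 0 with either salivary covariate, 3 with the Wald test, and 0 within 1 or 2 Mb, windows that do not hold Tmem98. In the averaged effect 9 became 4 without a filter, 3 with either salivary covariate, 2 without the most salivary-rich libraries and 20 with the Wald test. In the interaction 2 became 1 without a filter, 4 at a mean of at least 50 counts, 0 with either salivary covariate, 1 without the most salivary-rich libraries, 8 with the Wald test, and 0 within 1 or 2 Mb. The 1 gene called without the most salivary-rich libraries was Cpd, and neither Tmem98 nor Myo1d was called there. For challenge in wild type 21 became 0 with either salivary covariate, and 6 and 9 within 1 and 2 Mb. The salivary score nearly coincides with challenge in wild type, so that fit can hardly tell them apart. For challenge in the knockout 14 became 9 without a filter, 1 with either salivary covariate, 0 without the most salivary-rich libraries, 22 with the Wald test, and 5 and 7 within 1 and 2 Mb. With the salivary score the 1 gene was Scarf1, and with 2 salivary components it was none of the 14. Of all genes tested, 0.739, 0.00998, 2.53, 0.0, 0.15 and 3.67% were called in these 6 comparisons with the salivary score. The shares were 0.624, 0.00499, 1.64, 0.0, 0.22 and 2.38% with 2 salivary components, and 1.75, 0.414, 0.558, 0.837, 12.3 and 3.35% without the most salivary-rich libraries. Beside the Wald counts, 11.4, 4.66, 9.82, 6.19, 22.8 and 14.8% of all genes tested were called in the same 6 comparisons.

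Leaving out 1 library gave 3 to 6 calls when sensitized (3 without KO_se replicate 2), 0 to 2 when challenged, 2 to 8 in the average, 0 to 4 in the interaction, 13 to 20 for challenge in wild type (13 without WT_DTH replicate 1) and 5 to 15 for challenge in the knockout (5 without KO_se replicate 2 or 3, 7 without any 1 library of KO_DTH). In the challenged comparison the count was 0 without any 1 library of WT_DTH, and 2 without replicate 3 of WT_se, KO_se or KO_DTH. In the average only leaving out replicate 3 of WT_DTH or of KO_DTH kept over 5 calls. In the interaction 0 remained without WT_DTH replicate 3, KO_se replicate 1 or 2, or KO_DTH replicate 1, and 4 without KO_DTH replicate 3.

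With the replicate block the 6 counts were 4, 1, 5, 1, 19 and 10. Deviations of libraries with the same number correlated by -0.098 to 0.141, over 0.1 in 1 of 18 pairs, so the numbers were not taken to pair the libraries. Of the single genes under these settings, 1417 values kept their side of the threshold, 221 lost a call, 38 gained one and 0 called values changed sign.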

Other observations

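Some genes of the window share exon bases, and their levels varied between libraries in ways that their sums did not. Gemin4, a gene of the complex that assembles small nuclear ribonucleoproteins, ranged from 0.0735 to 8.66 CPM over the 12 libraries. Glod4, with which it shares exon bases, ranged from 16.5 to 27.9 CPM, and the sum of both from 24.2 to 30.4 CPM. Evi2b ranged from 0.911 to 35.4 CPM and Evi2 from 17.2 to 75.4 CPM, while the sum of Evi2, Evi2a and Evi2b ranged from 74.0 to 121 CPM. That sum was 74.0 to 88.6 CPM in WT_se, 103 to 109 in KO_se, 93.5 to 121 in WT_DTH and 112 to 120 in KO_DTH. These sums were formed after the values were seen and were not tested.

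The window also held 12 tested genes that are not protein-coding, and 0 of them were called in a genotype comparison, by edgeR's quasi-likelihood test. Mir22hg, the host gene of miR-22, rose with challenge by 0.75 ± 0.13 in wild type (adjusted p 0.00236) and by 0.75 ± 0.13 in the knockout (adjusted p 0.00415). Rpl23a, the ribosomal protein gene left out by the rule, starts 108 kb after Mir451a. It rose by 0.44 ± 0.11 in KO_se against WT_se (adjusted p 0.0449) and differed by -0.04 ± 0.11 in the challenged nodes.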
